A study of Mus musculus with 2 samples.

Results

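The nuclear genes for the proteins of the mitochondrial ribosome were taken as every protein-coding gene whose GENCODE mouse symbol starts with Mrpl or Mrps and a number. Ensembl IDs without version joined them to the gene tables of both samples. The rule uses symbols and no measured value, although it was chosen with earlier results of these data known. The annotation (GENCODE M21, mm10) names 78 such genes, and 77 of them had a row among the 43346 gene IDs of the tables. Mrpl33 had no row under its ID and was not analysed here. By symbol, 48 of the 77 belong to the large and 29 to the small subunit.

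Skeletal muscle of B6NCrl mice was collected at birth (postnatal day 0) for total RNA sequencing. The labels give no treatment and form 1 group of 2 samples, described as pup 1 (replicate 1) and pup 2 (replicate 2) of a single pregnancy, although the labels give both the same donor entry. Each library started from 10 ng of RNA longer than 200 nt, sex was not collected, and which muscle was taken is not stated. If the samples are not separate animals, the SDs below do not measure spread between animals.

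The mitochondrial ribosome makes the few proteins encoded by mitochondrial DNA, all of them subunits of the respiratory chain and of ATP synthase, on which contracting muscle relies. Its rRNAs come from the mitochondrial genome, whereas all of its proteins are encoded in the nucleus, made on cytosolic ribosomes and imported. Some of these proteins descend from bacterial ribosomal proteins and others exist only in mitochondrial ribosomes, where they replace or extend rRNA.

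The gene rows held 40454600 expected counts in replicate 1 and 37150684 in replicate 2. All 8 skeletal muscle markers were present, with summed levels of 91479 TPM in replicate 1 and 101716 TPM in replicate 2, and 4 heart markers summed to 6.77 TPM and 6.68 TPM. The pups differed in markers of other tissues. The 6 epidermal markers summed to 615 TPM in replicate 1 and 10.9 TPM in replicate 2, the 5 white adipocyte markers to 2392 TPM and 102 TPM, and the 5 cartilage markers to 36.6 TPM and 2.49 TPM. In both pups 2 of the 6 epidermal, 5 of the 5 adipocyte and 1 of the 5 cartilage markers reached 1 TPM. Sums in replicate 1 and replicate 2 were 6157 TPM and 5061 TPM for red cell, 1176 TPM and 697 TPM for leukocyte, 4998 TPM and 3580 TPM for fibroblast, 203 TPM and 184 TPM for endothelial, 52.3 TPM and 46.5 TPM for Schwann cell and 25.3 TPM and 24.3 TPM for brown adipocyte markers. The brown adipocyte sum was almost all Cidea, with 24.8 TPM in replicate 1 and 23.9 TPM in replicate 2. Ucp1 had 0.13 TPM and 0 TPM, and Dio2 had 0.43 TPM and 0.41 TPM. Most of the leukocyte sum came from Cma1 (567 TPM and 315 TPM) and Cpa3 (485 TPM and 261 TPM). Lyz2 had 112 TPM and 110 TPM, Cd74 had 9.37 TPM and 8.85 TPM, and Ptprc had 2.6 TPM and 1.77 TPM. The part of these marker differences in the values below was not tested.

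All 77 genes were expressed in newborn muscle. Each reached 1 TPM in both pups, against 12092 of 21474 protein-coding genes, of which 58.2% reached a mean of 1 TPM. All 76 cytosolic ribosomal protein genes and all 37 complex I genes also reached 1 TPM in both pups. Each of the 77 genes had between 695 and 8905 expected counts per library. TPM is a level corrected for transcript length and scaled to a fixed sum per library. The median level was 79.4 TPM (81.9 TPM in replicate 1 and 76.9 TPM in replicate 2), and the lower and upper quartiles lay at 48.3 TPM and 129 TPM. The median gene stood at percentile 88.4 of 12495 expressed protein-coding genes. Together the genes took 0.491% of the counts in replicate 1 (95% Wilson interval 0.489% to 0.493%) and 0.478% in replicate 2 (0.476% to 0.480%), where the intervals cover counting error only.

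Levels differed 30.4-fold between the highest and the lowest gene, and 4 genes held 19.5% of the summed level. Mrpl42, a mitochondria-specific protein of the large subunit (chromosome 10, 95480805 to 95501940, minus strand, mm10), was the most abundant with 506 TPM in replicate 1 and 555 TPM in replicate 2 (531 ± 34.8 TPM, SD, n = 2). Mrpl51, also mitochondria-specific, had 385 TPM and 348 TPM, and Mrpl30, which has a bacterial counterpart, had 331 TPM and 389 TPM. The pups order Mrpl51 and Mrpl30 differently, so their rank is within the spread between samples. The fourth was Mrps21 of the small subunit, described below. In the large subunit Mrpl17 had 285 TPM and 266 TPM, and Mrpl52, Mrpl53, Mrpl54 and Mrpl12 lay between 156 TPM and 191 TPM. Mrpl12 is the stalk protein that also binds the mitochondrial RNA polymerase.

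The low end of the large subunit was held by Mrpl35 (chromosome 6, 71812997 to 71826969, minus strand) with 17.2 TPM in replicate 1 and 17.8 TPM in replicate 2. Mrpl1 had 22.5 TPM and 21.8 TPM, and Mrpl11 had 23.4 TPM and 22.9 TPM. Both belong to the flexible stalks of the large subunit, Mrpl1 at the exit side for tRNA and Mrpl11 at the base where translation factors bind. Mrpl19 with 28.5 TPM and 24.5 TPM and Mrpl57 with 29.1 TPM and 29.2 TPM completed the lowest 5. By the mean of the pups these were also the 5 lowest of all 77 genes.

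In the small subunit Mrps21 (chromosome 3, 95862634 to 95871519, minus strand), the counterpart of a bacterial small subunit protein, had 311 TPM in replicate 1 and 314 TPM in replicate 2 (312 ± 2.04 TPM, SD, n = 2). Mrps36 had 211 TPM and 228 TPM, and Mrps14 had 208 TPM and 198 TPM. Mrps36 carries a ribosomal symbol but is known as a component of the 2-oxoglutarate dehydrogenase complex. Mrps34, Mrps24, Mrps17, Mrps28 and Mrps33 lay between 113 TPM and 158 TPM. At the low end Mrps25 (chromosome 6, 92169525 to 92184033, minus strand) had 36.3 TPM and 27.2 TPM, followed by Mrps2 with 37.9 TPM and 34.1 TPM and Mrps27, a pentatricopeptide repeat protein, with 39.5 TPM and 34.7 TPM. Mrps11 had 40.7 TPM and 34.2 TPM, and Mrps9 had 43.0 TPM and 36.8 TPM. Among these 5 low genes, neighbours in the order were closer to each other than the pups were for at least 1 gene of the pair.

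**Figure D1:**
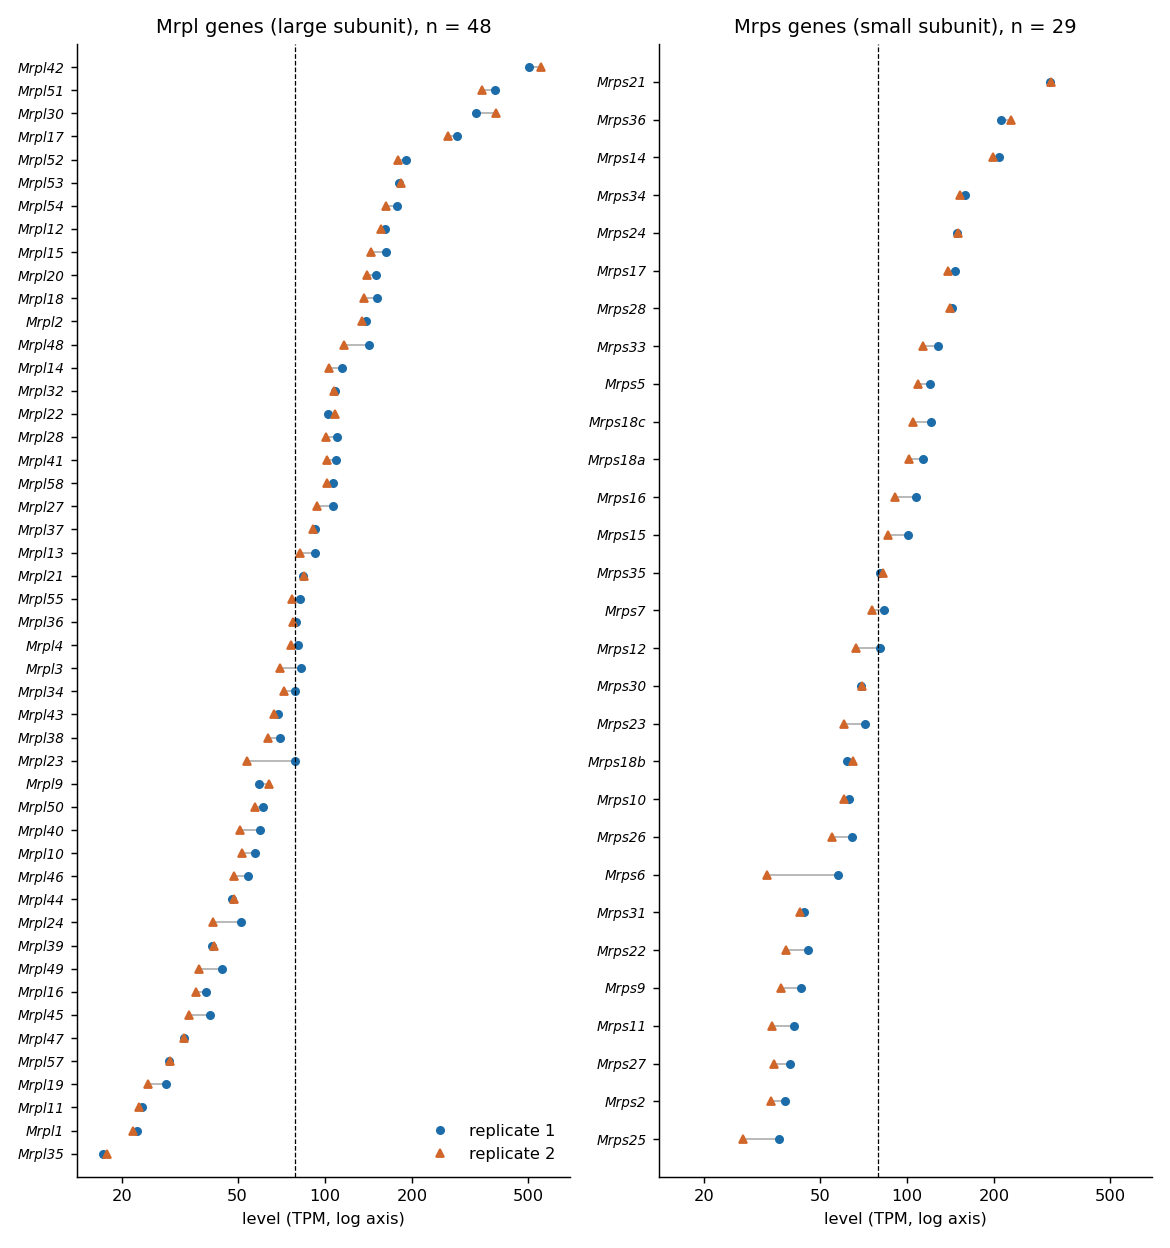
Level of each of the 77 genes in each pup (TPM, log axis), Mrpl genes left and Mrps genes right, sorted by the mean of the pups. Circles are replicate 1, triangles replicate 2, grey lines join the pups, and dashed lines mark the medians of 79.0 TPM (Mrpl) and 79.6 TPM (Mrps). The widest gaps between pups are those of Mrps6 and Mrpl23.

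The medians of the subunits were nearly equal. The median was 79.0 TPM over the 48 large subunit genes and 79.6 TPM over the 29 small subunit genes, and the difference of the median log2 levels, large minus small, was -0.01 on the mean of the pups. It was 0.04 in replicate 1 and 0.03 in replicate 2. Above the overall median lay 23 of 48 large subunit genes and 15 of 29 small subunit genes. The summed level was 5318 TPM in replicate 1 and 5100 TPM in replicate 2 for the large subunit, against 2936 TPM and 2747 TPM for the small subunit. The spread was wider in the large subunit, whose genes covered a 30.4-fold range (SD of log2 level 1.07), against a 9.84-fold range in the small subunit (SD 0.87). With 1 group of 2 samples and genes that are not replicates, none of these differences was tested.

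Assigned by the structure of the mammalian ribosome, Mrps18a and Mrps30 belong to the large subunit in spite of their symbols. Mrps18a had 113 TPM in replicate 1 and 102 TPM in replicate 2, and Mrps30 had 69.3 TPM and 70.2 TPM. The Mrps18 paralogs, 3 relatives of a single bacterial protein that occupy different places in the ribosome, did not share a level. Mrps18c had 121 TPM and 105 TPM, close to Mrps18a, whereas Mrps18b had 61.9 TPM and 65.3 TPM, below both in each pup. By counts, not divided by length, Mrps18b had 1730 in replicate 1 and 1755 in replicate 2. Mrps18c had 1901 and 1548 counts, so Mrps18b was above it in replicate 2. Mrps18a had 2660 and 2255 counts, above both. The 32 mitochondria-specific proteins had a median of 67.3 TPM, and the 44 with a bacterial counterpart a median of 85.8 TPM. The remaining gene of the 77 had no class and is left out of these medians. With subunits assigned by structure, the large subunit medians were 74.6 TPM over 22 mitochondria-specific genes and 81.4 TPM over 28 conserved genes. Within the small subunit they were 61.8 TPM over 10 and 96.2 TPM over 16. The order of the classes depended on division by length. Mitochondria-specific genes had a median effective length of 1037 nt and conserved genes 802 nt, and in CPM (counts scaled for library size) their medians were 56.2 and 54.0 overall and 57.0 and 51.4 in the large subunit, the reverse of the order in TPM, while the small subunit kept it with 49.5 and 55.9. Both classes covered the range widely, with Mrpl42 and Mrpl57 among the mitochondria-specific genes and Mrpl30 and Mrpl35 among the conserved ones.

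Of the genes in the ribosome that carry other symbols, the 5 set beside the members lay in the same range. Chchd1 had 173 TPM in replicate 1 and 150 TPM in replicate 2, Aurkaip1 had 126 TPM and 106 TPM, and Dap3, the GTP-binding protein of the small subunit, had 80.1 TPM and 65.3 TPM. Gadd45gip1 had 57.2 TPM and 58.3 TPM, and Ptcd3, another pentatricopeptide repeat protein, had 47.0 TPM and 44.0 TPM. The RNA partners of these proteins were far more abundant. The small rRNA mt-Rnr1 had 1599 TPM and 2893 TPM, and the large rRNA mt-Rnr2 had 6675 TPM and 10144 TPM. The rRNA levels are uncertain where nuclear copies share reads, and whether rRNA was removed before sequencing was not given in the sources used here.

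Short genes had higher levels. Across the 77 genes the log2 level (TPM) and the log2 effective length, which ran from 313 nt to 3616 nt with a median of 830 nt, had a Pearson correlation of -0.76 (-0.78 over the 48 large subunit genes and -0.72 over the 29 small subunit genes). It is given as a description, because the genes share libraries and TPM divides by that length. The same measure was -0.67 over 37 complex I genes, -0.33 over 76 cytosolic ribosomal protein genes and -0.39 over expressed protein-coding genes. CPM, which is not divided by length, had a correlation of -0.06 with length over the 77 genes. The SD of log2 CPM was 0.65, against 1.00 for log2 TPM, and the range of CPM was 10.1-fold, against 30.4-fold. Mrpl35 shows the difference, being the lowest by TPM with 1855 counts in replicate 1 and 1817 counts in replicate 2, more than Mrps6 with 1287 counts and 695 counts.

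**Figure D2:**
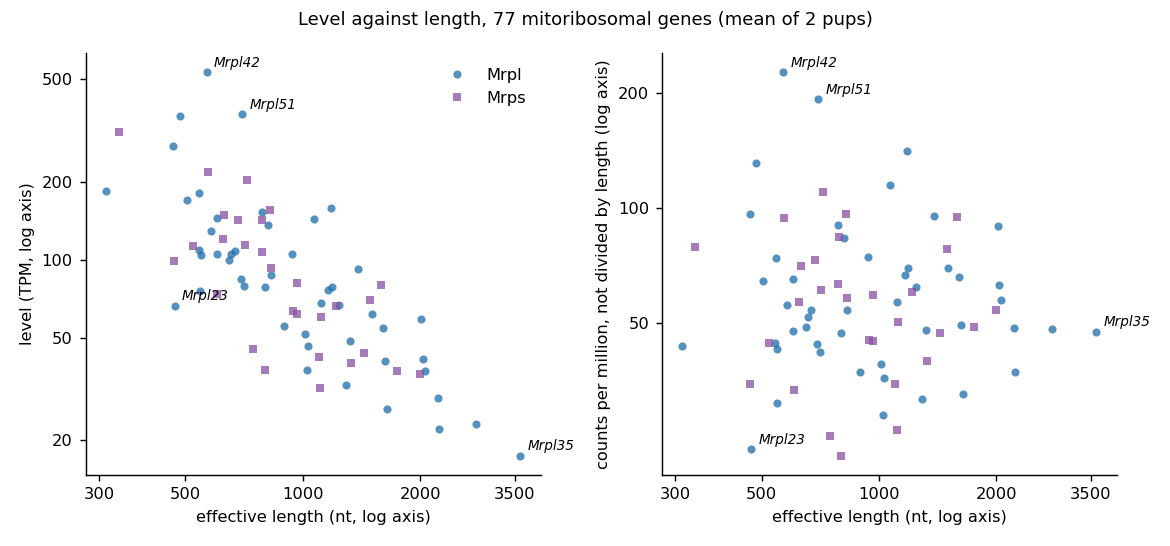
Level in TPM (left) and in CPM (right) of the 77 genes against their effective length in nt, all axes logarithmic, means of the 2 pups, circles for Mrpl and squares for Mrps genes. The TPM values fall with length (Pearson -0.76 on log2 values) and the CPM values do not (-0.06).

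Regulation of nuclear genes for mitochondrial proteins is known to involve the factors NRF1, GABP of the ETS family, and YY1, whose binding motifs were searched in promoter windows from RefSeq (GRCm38.p6), each running from 250 bases before to 50 after a start. Of the 77 genes, 68 matched, with 74 windows. The letters AAGATGGC (YY1), CCGGAAGT (ETS) and GCATGCGC (NRF1 core, which also lies inside the longer NRF1 palindrome) were searched on both strands. A match is a description and not a site of binding. The following windows are shown, 5′ to 3′ on the gene's strand with matches to these motifs in capitals, because they hold YY1, the most common of these 3 motifs in the windows: Mrpl32 has it with several NRF1 matches, Mrps27 has it with an ETS match, Mrps11 has it in a gene whose start overlaps that of Mrpl46, and Mrpl42 is the most abundant gene.
Mrpl32 promoter, chr13:14612988-14613287, minus strand: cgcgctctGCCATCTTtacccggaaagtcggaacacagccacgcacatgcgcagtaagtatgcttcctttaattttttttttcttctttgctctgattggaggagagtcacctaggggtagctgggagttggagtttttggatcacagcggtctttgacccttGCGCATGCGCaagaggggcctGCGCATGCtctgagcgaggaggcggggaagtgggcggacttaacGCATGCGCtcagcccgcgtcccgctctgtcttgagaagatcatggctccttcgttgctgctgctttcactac
Mrps27 promoter, chr13:99344536-99344835, plus strand: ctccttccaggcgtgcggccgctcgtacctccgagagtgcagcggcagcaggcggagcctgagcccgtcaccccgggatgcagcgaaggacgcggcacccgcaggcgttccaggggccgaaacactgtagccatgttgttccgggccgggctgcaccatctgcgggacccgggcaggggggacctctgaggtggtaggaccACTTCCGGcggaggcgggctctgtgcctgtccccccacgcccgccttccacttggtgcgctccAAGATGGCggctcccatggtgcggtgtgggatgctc
Mrps11 promoter, chr7:78782881-78783180, plus strand: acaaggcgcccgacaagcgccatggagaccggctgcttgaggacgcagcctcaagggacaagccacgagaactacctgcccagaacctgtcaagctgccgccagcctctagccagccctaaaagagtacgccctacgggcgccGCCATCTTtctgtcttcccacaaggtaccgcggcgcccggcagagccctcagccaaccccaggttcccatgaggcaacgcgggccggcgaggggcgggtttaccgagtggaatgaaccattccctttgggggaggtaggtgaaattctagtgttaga
Mrpl42 promoter, chr10:95501900-95502199, minus strand: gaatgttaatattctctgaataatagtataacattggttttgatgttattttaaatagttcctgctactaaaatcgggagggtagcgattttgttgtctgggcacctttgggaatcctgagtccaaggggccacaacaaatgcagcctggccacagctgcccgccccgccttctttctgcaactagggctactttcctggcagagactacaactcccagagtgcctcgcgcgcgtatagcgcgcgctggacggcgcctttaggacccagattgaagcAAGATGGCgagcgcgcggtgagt

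The YY1 letters stood in 12 of 74 windows (16.2%), against 4.22% of 12786 windows of expressed protein-coding genes and 2.75% of all 32880 windows. They were in 6 of 47 large subunit and 6 of 27 small subunit windows, in 20.0% of 35 complex I windows and in 10.6% of 66 cytosolic ribosomal protein windows. The ETS letters stood in 11 windows (14.9%), against 7.63% of the expressed and 3.89% of all windows. In cytosolic ribosomal protein windows the ETS share was 16.7%, above the 14.9% here, and in complex I windows it was 2.86%. The NRF1 core stood in 7 windows (9.46%), with 6 of the 7 in the large subunit. Its share was 4.94% of the expressed and 2.71% of all windows, 8.57% of complex I windows and 4.55% of cytosolic ribosomal protein windows. In the Mrps27 and Mrpl42 windows the YY1 letters lie close to the end of the window and so near the start of the gene. At least 1 of the 3 motifs was held by 28 of 68 genes (41.2%), against 18.5% of 9957 expressed genes. That share was not counted for complex I or cytosolic ribosomal protein genes. The TATA letters (TATAAA) were in 6.76% of the windows, against 7.63% of the expressed and 13.6% of all windows, and CCAAT was in 39.2%, against 37.5% of the expressed windows.

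The median level was 79.0 TPM in 12 genes with the YY1 letters and 76.0 TPM in 56 genes without them, 100.2 TPM in 11 genes with the ETS letters and 75.6 TPM in 57 without, and 63.6 TPM in 7 genes with the NRF1 core and 78.5 TPM in 61 without. These differences were not tested. The regulators of such genes had a median of 13.7 TPM over 9 genes. Myc, a growth-related transcription factor, had 24.4 TPM in replicate 1 and 18.9 TPM in replicate 2, the nuclear receptor Esrra had 19.5 TPM and 22.7 TPM, Gabpa, the DNA-binding subunit of GABP, had 15.5 TPM and 15.3 TPM, and the coactivator Pprc1 had 8.43 TPM and 7.87 TPM, the lowest of the list.

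**Figure D3:**
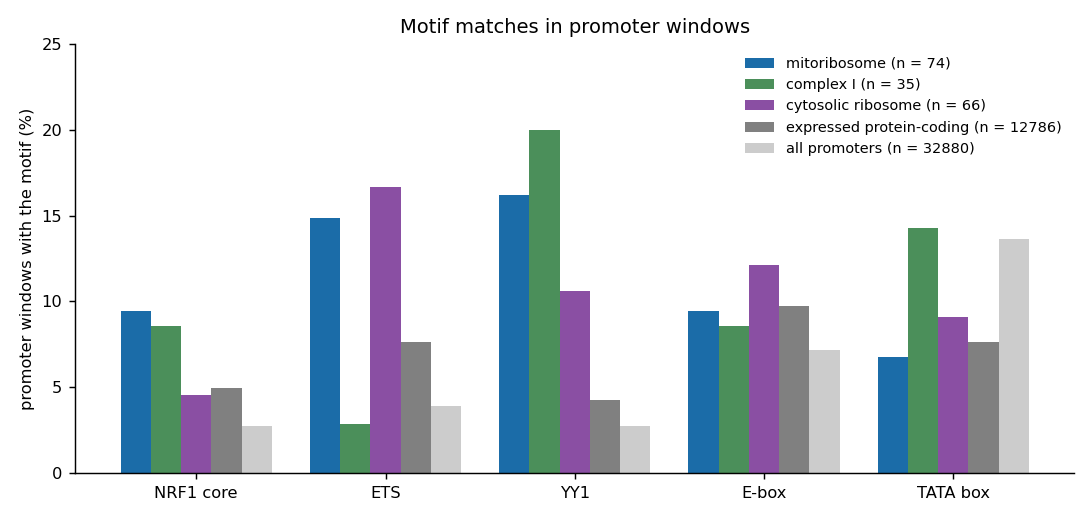
Share of promoter windows (percent) that hold each motif, in mitoribosomal genes, complex I genes, cytosolic ribosomal protein genes, expressed protein-coding genes and all windows (numbers of windows in the legend). For YY1 the mitoribosomal bar stands at 16.2% and that of expressed genes at 4.22%, while the E-box bars stand at 9.46% and 9.71%.

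Many of the genes start back to back with another gene. A protein-coding gene on the other strand began within 1000 nt upstream, or overlapped by up to 500 nt, for 26 of the 77 genes (33.8%), against 1764 of 12495 expressed protein-coding genes (14.1%). Mrps11 (chromosome 7) pairs with Mrpl46, a small and a large subunit gene whose transcribed parts overlap by 412 nt at their starts. Mrps12 pairs with Sars2, the mitochondrial seryl-tRNA synthetase, at a distance of 172 nt. Mrpl36 pairs with the complex I gene Ndufs6, Mrps27 with Ptcd2, and Mrpl32 with the proteasome gene Psma2 at 75 nt. Levels within these pairs varied. Mrps27 had 39.5 TPM in replicate 1 and 34.7 TPM in replicate 2 beside 43.3 TPM and 42.2 TPM for Ptcd2. Mrps12 had 80.5 TPM in replicate 1 and 66.6 TPM in replicate 2 beside 15.6 TPM and 13.4 TPM for Sars2, and Mrpl36 had 79.3 TPM and 77.8 TPM beside 418 TPM and 479 TPM for Ndufs6.

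Levels of the other genes of mitochondrial translation were mostly lower than those of the ribosomal protein genes. This held in CPM with narrower gaps. The medians in CPM were 54.2 for the 77 genes, 29.8 for translation factors, 20.1 for tRNA charging and 18.7 for assembly genes. The 14 translation factors had a median of 22.6 TPM. Tufm, the elongation factor that brings aminoacyl-tRNA, led with 104 TPM in replicate 1 and 95.7 TPM in replicate 2, followed by its exchange factor Tsfm with 62.0 TPM and 50.9 TPM and the translocase Gfm1 with 41.9 TPM and 38.5 TPM. Mtfmt, which formylates the initiator methionyl-tRNA, was the lowest by mean with 8.82 TPM and 7.60 TPM. The 25 ribosome assembly genes had a median of 14.3 TPM, with Malsu1 at 76.4 TPM and 85.4 TPM, Rbfa at 49.1 TPM and 44.7 TPM, and Mterf3 at 34.9 TPM and 31.7 TPM, while Ybey, an endoribonuclease, had 4.27 TPM and 3.88 TPM.

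The 20 genes that charge mitochondrial tRNAs had the lowest median by TPM, 12.5 TPM. In CPM their median was 20.1, above the 18.7 of the assembly genes, so that place depended on division by length. Rars2 had 36.4 TPM in replicate 1 and 29.1 TPM in replicate 2, and Yars2 had 23.9 TPM in each. Mars2 was the lowest with 2.45 TPM and 2.56 TPM. Lars2, the leucyl-tRNA synthetase, stood far from the rest with 995 TPM and 943 TPM, all from 1 listed transcript. That level exceeds each of the 77 mitochondrial ribosomal protein genes. What the Lars2 reads match was not examined. The 10 genes of mitochondrial DNA transcription and replication had a median of 25.4 TPM. The RNA-binding protein Slirp had 253 TPM and 221 TPM, the single-stranded DNA-binding protein Ssbp1 had 81.9 TPM and 77.7 TPM, Tfam, which packages mitochondrial DNA, had 53.6 TPM and 55.2 TPM, and the DNA polymerase Polg was the lowest with 9.36 TPM and 8.57 TPM.

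By summed TPM, the RNA of the mitochondrial ribosomal protein genes lay about 5 times below that of the cytosolic ones. The gap was smaller in summed counts, which are not divided by length. These were 198769 and 720496 in replicate 1 and 177650 and 683469 in replicate 2. Summed levels were 8254 TPM for the 77 genes and 41544 TPM for 76 cytosolic ribosomal protein genes in replicate 1, and 7847 TPM and 42057 TPM in replicate 2, so the cytosolic sum was 5.03-fold and 5.36-fold higher (log2 ratio of mitochondrial over cytosolic -2.33 and -2.42). The medians were 79.4 TPM and 472 TPM, and 37 complex I genes had a median of 495 TPM. The distributions overlapped. Of the 77 mitochondrial genes 1, Mrpl42, reached the cytosolic median, and 43 of 76 cytosolic genes lay below Mrpl42. The lowest cytosolic gene by mean, Rpl5, had 20.7 TPM in replicate 1 and 17.2 TPM in replicate 2. Similar copies elsewhere in the genome were sought for the 77 genes (below) and not for the cytosolic genes. How far reads shared with copies change the cytosolic values was therefore not tested. Within 2-fold of the median of their own set lay 54 of 77 mitochondrial genes (70.1%), 56 of 76 cytosolic genes (73.7%) and 28 of 37 complex I genes (75.7%).

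**Figure D4:**
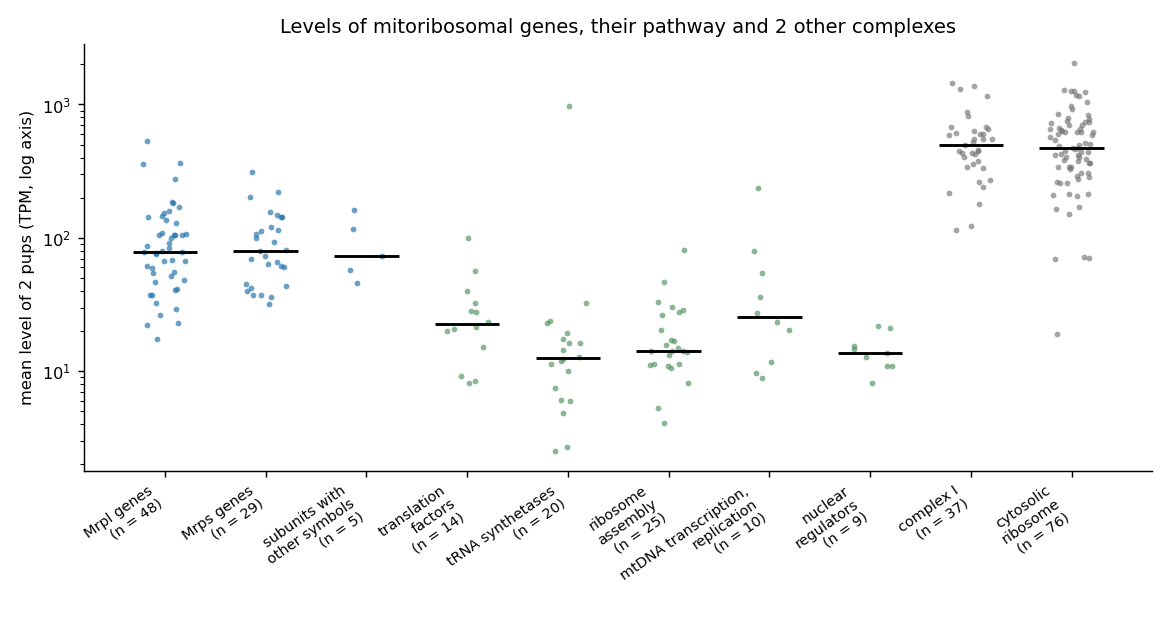
Mean level of the 2 pups (TPM, log axis) for each gene of the mitochondrial ribosome, of its pathway lists and of 2 other complexes, with black bars at the medians. The Mrpl and Mrps bars lie at 79.0 TPM and 79.6 TPM, the pathway bars between 12.5 TPM and 25.4 TPM, and those of complex I and the cytosolic ribosome at 495 TPM and 472 TPM.

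The transcript tables list 275 transcripts for the 77 genes, and 19 genes have a single one. The same transcript led by TPM in both pups for 74 genes, and in 69 the leading one held at least 50% of the gene in both. Transcripts annotated as protein-coding held 79.4% of the summed level of the 77 genes in replicate 1 and 80.1% in replicate 2. Retained-intron forms held 7.18% and 6.99%, forms annotated for nonsense-mediated decay 6.87% and 6.76%, and processed transcripts without a reading frame 6.58% and 6.13%. The tables were built on GENCODE M4 and the classes come from M21, so a class can differ from the one in use when the reads were assigned.

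In 62 genes the form leading by TPM was protein-coding in both pups. In the other 15 it was not coding in at least 1 pup, and high and low genes were among them. Mrpl51, among the 3 most abundant genes in both pups, was led by a processed transcript with 50.4% of its level in replicate 1 and 49.2% in replicate 2, while its listed coding form Mrpl51-201 had 15.1 TPM and 12.5 TPM. Mrps14 was led by a form annotated for decay with 91.4% and 91.8%, although by counts, which are not divided by length, that form held 73.0% and 73.2%. Forms for decay also led Mrpl13, Mrpl3 and Mrps11, and the sole listed transcript of Mrpl32 is of that class. Processed transcripts led Mrpl15, Mrpl19, Mrpl23 and Mrpl47, and retained introns led Mrps24, Mrps25, Mrps26 and Mrps5. By counts the leading form was coding in both pups in 5 of these 15 genes, Mrpl19, Mrpl47, Mrps11, Mrps25 and Mrps5. In Mrpl19 the coding form held 81.8% of the counts in replicate 1 and 83.1% in replicate 2, and in Mrpl47 it held 76.3% and 76.7%. The lead by TPM changed between the pups in Mrpl48, Mrps10 and Mrps5. In Mrpl48 a short coding form held 41.4% in replicate 1 and 34.4% in replicate 2, and a form annotated for decay held 34.9% and 42.6%. In Mrps10 both leading forms were coding, and they held 49.6% in replicate 1 and 52.9% in replicate 2.

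Mrpl23, a protein at the exit of the peptide tunnel, was poorly separated from a copy of itself. The gene (chromosome 7, 142532686 to 142540747, plus strand) had 1110 counts in replicate 1 and 717 counts in replicate 2, and its processed pseudogene Mrpl23-ps1 (chromosome 2, 74591330 to 74591909, minus strand) had 2391 and 2531 counts. The pseudogene therefore held 68.3% and 77.9% of the counts of the pair. Transcript Mrpl23-201, of 692 nt, aligned to the pseudogene from position 151 to 690, over 540 nt with 0 mismatches and 0 gaps. Mrpl23-202, of 644 nt, aligned from position 146 to its end, so the first part of each transcript did not align. The first 100 bases of the coding sequence (GENCODE M21, mm10) show what a read of either would look like, since they are the same letters in both.
Mrpl23 and Mrpl23-ps1, coding positions 1 to 100: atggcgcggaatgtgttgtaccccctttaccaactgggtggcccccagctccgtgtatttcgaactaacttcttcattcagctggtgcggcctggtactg

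The authors' own estimate of uncertainty was largest for this gene. The posterior coefficient of variation of its count was 11.3% in replicate 1 and 16.8% in replicate 2, while no other of the 77 genes exceeded 1.21%. Its level was 79.2 TPM in replicate 1, with deposited bounds of 60.7 TPM and 100.3 TPM, and 53.9 TPM in replicate 2, with bounds of 34.2 TPM and 71.4 TPM, so the bounds overlap. With the pseudogene added the pair had 245 TPM and 240 TPM. Similar copies, of at least 90% identity over at least 50% of the coding sequence, were found for 20 of the genes, with 33 pseudogenes in all. The pseudogenes other than Mrpl23-ps1 held 262 counts in replicate 1 and 172 counts in replicate 2 in all. Of these Gm5776, a copy of Mrps33, had 142 counts in replicate 1 and 67.2 counts in replicate 2 beside 2412 and 1985 counts for Mrps33 itself. Protein-coding genes matched in 2 further cases, both of which overlap the gene they match. Twnk, the mitochondrial DNA helicase, shares 507 nt of exon with Mrpl43 and had 1070 and 1221 counts, and Gm42688 shares 695 nt with Mrpl53 and had 192 and 147 counts.

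Exon bases are shared with another annotated gene by 32 of the 77 genes, in 7 of them on the same strand. Whether the counting used strand is not given in the sources used here, so reads in these stretches cannot be told apart by gene. Examples are Mrps25, which shares 4590 nt with Nr2c2 on the other strand, Mrpl19, which shares 1962 nt with Gcfc2, Mrpl48, which shares 708 nt with Rab6a, Mrpl47, which shares 616 nt with Ndufb5, Mrps34, which shares 763 nt with Nme3 on the same strand and 1309 nt with Mapk8ip3 on the other, Mrps24, which shares 226 nt with Urgcp on the same strand, and Mrps11 and Mrpl46, which share 173 nt with each other.

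The pups had nearly the same pattern. Across the 77 genes the Pearson correlation of log2 TPM between the pups was 0.990, where genes are not independent replicates. Ratios between the pups were taken from counts scaled with TMM, as log2 of replicate 1 over replicate 2. None of the 77 genes passed 2-fold, against 6.34% of 17004 genes with at least 10 mean counts (4.95% higher in replicate 1 and 1.39% higher in replicate 2). Among 5584 protein-coding genes in the range of counts of the 77 genes, only 69 were at least 2-fold higher in replicate 1 and 1 in replicate 2. There was no test, since each pup gave a single library. Mrps6 alone passed 1.5-fold, against 14.4% of the 17004 genes and 3.15% of the 5584 genes. In bulk tissue, fewer cells of a type and less RNA per cell cannot be told apart.

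The median log2 ratio of the 77 genes was -0.02, beside 0.01 over all genes tested. It was -0.03 for the large subunit, with 16 genes higher in replicate 1 and 32 higher in replicate 2, and 0.03 for the small subunit, with 16 and 13. In all 32 of 77 genes (41.6%) were higher in replicate 1, against 52% of all genes and 50.3% of protein-coding genes in the same range of counts. That count turned with the scaling: by TPM 61 of 77 genes were higher in replicate 1, against 70% of all genes, with 53 by total counts and 74 by spike-ins. With TMM, the 95% counting interval of the ratio lay wholly above 0 (higher in replicate 1) in 12 genes (15.6%), against 25.2% of all genes tested, and wholly below 0 in 28 genes (36.4%), against 21.1%. In protein-coding genes of the same range of counts these shares were 30.9% and 30.3%. The sign of such small ratios depends on the scaling, which moved the median of all genes to 0.10 with total counts, 0.15 with TPM and 0.26 with spike-ins, while the 77 genes stayed 0.03 to 0.04 below the median of all genes under each of them.

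Mrps6, the counterpart of a bacterial small subunit protein (chromosome 16, 92058270 to 92112227, plus strand), differed most between the pups. It had 1287 counts (57.6 TPM) in replicate 1 and 695 counts (32.9 TPM) in replicate 2, a log2 ratio of 0.67, and replicate 1 was the higher one. The 95% counting interval of that ratio ran from 0.54 to 0.81. Mrps6 shares 159 nt of exon on the same strand with Slc5a3, a myo-inositol transporter, which had 456 counts in replicate 1 and 274 counts in replicate 2. Mrpl23 had a ratio of 0.42, but its pseudogene had -0.29 and the sum of the pair -0.10. Mrpl24, another protein of the tunnel exit, had 0.18. In the other direction Mrpl30 had -0.37 with 4782 counts in replicate 1 and 5341 in replicate 2, Mrpl42 had -0.27 with 8581 and 8905 counts, and Mrps36 had -0.27 with 3577 and 3711 counts. These 3 are among the most abundant genes of their subunits.

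With the TMM scaling, medians of several other gene sets lay farther from 0. Complex I genes had a median log2 ratio of -0.20, with 36 of 37 higher in replicate 2, and cytosolic ribosomal protein genes had -0.13, with 66 of 76 higher in replicate 2. By TPM these counts were 28 of 37 and 39 of 76, and by spike-ins 11 of 37 and 17 of 76. The 13 mitochondrially encoded mRNAs had a median of -0.59 and were all higher in replicate 2 by TMM, total counts, TPM and spike-ins, with TMM ratios between -1.41 for mt-Co1 and -0.36 for mt-Atp8. The rRNAs mt-Rnr1 and mt-Rnr2 had -0.99 and -0.74, so the RNA part of the mitochondrial ribosome and its protein genes did not differ alike between the pups. With TMM all 8 muscle markers were higher in replicate 2, with a median of -0.18, but 6 of 8 were by TPM and 3 of 8 by spike-ins. The epidermal, white adipocyte and cartilage markers were higher in replicate 1 by each of these scalings, with TMM medians of 8.87, 4.38 and 3.95. The part of tissue makeup in the ratios of the ribosomal protein genes was not tested. Among the pathway lists the medians were -0.01 for translation factors, 0.00 for tRNA charging and assembly genes, -0.12 for mitochondrial DNA transcription and replication and -0.05 for regulators, and 0 of these 78 genes passed 2-fold.

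**Figure D5:**
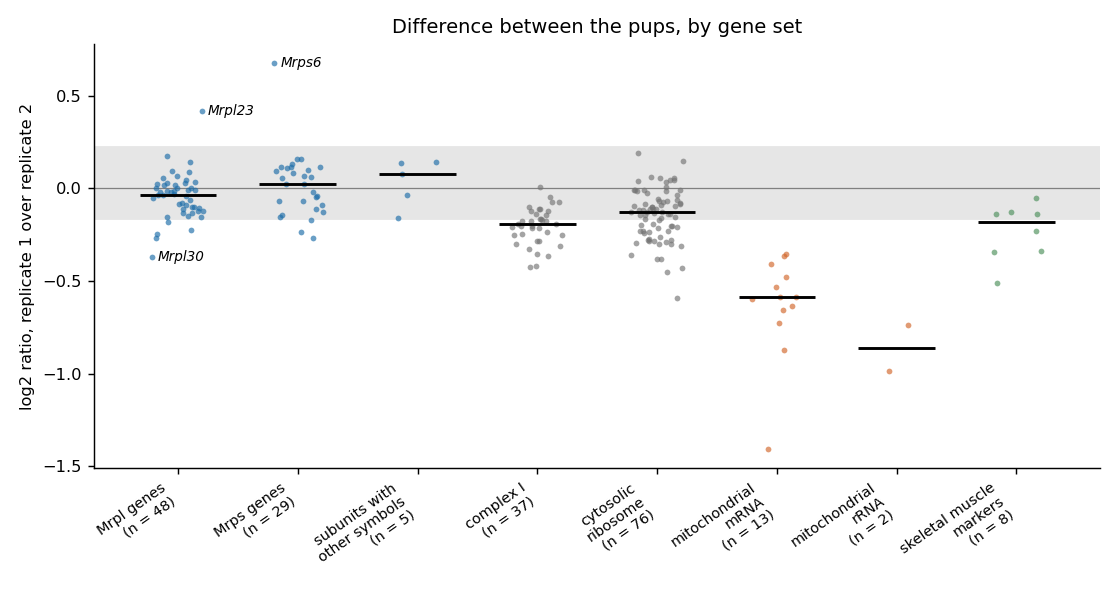
Log2 ratio of replicate 1 over replicate 2 (TMM-scaled counts) for each gene, by set, with black bars at the medians and a grey band for the middle quartiles of all 17004 genes tested. The Mrpl and Mrps medians (-0.03 and 0.03) lie within the band, those of the mitochondrially encoded mRNAs and rRNAs below it.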

How the data were processed

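Total RNA of skeletal muscle was measured in 2 samples of 1 group. The authors deposited expected counts per gene and per transcript (estimated counts that need not be whole), TPM (expected counts divided by effective length and scaled to a fixed sum), and, per the file headers, posterior means of both. The share of each transcript in its gene was deposited as a percent (IsoPct), and bounds of an interval of TPM, treated as a score, were deposited too. Lengths and effective lengths in nt are those the authors deposited. Files accompanying the tables name mm10 and GENCODE M4, as do the submitters' processing notes. The aligner, quantifier and their settings were not given in the sources used here. The labels' protocols name a mirVana extraction and a SMARTer ultra low input kit.

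Symbols, biotypes and positions came from GENCODE M21 (mm10), which matched 42462 of 43346 gene IDs. Levels are TPM as deposited, means of 2 samples, with 0.1 TPM added before logarithms. For the ratio of the pups, genes with at least 10 mean counts were kept, after rounding the expected counts to integers. TMM factors and log2 CPM (prior count 2) came from edgeR 4.0.16 under R 4.3.3. No quasi-likelihood test was run, since 1 group offers no contrast and a ratio between 2 single libraries leaves no residual degrees of freedom. DESeq2 1.42.0 size factors were an alternative. The ratio step was tested on simulated data. Intervals at 95% are Wilson for shares and Clopper-Pearson, conditional on the summed counts, for ratios. No source used here records molecular identifiers and PCR copies are not independent, so these intervals cover counting error only. Copies were sought with blastn 2.17.0. Tables were handled with pandas 2.3.3 and numpy 2.4.6 in Python 3.11.15, intervals with scipy 1.17.1 and plots with matplotlib 3.10.9.

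The genes, the pathway and marker lists and the classes by structure were chosen with earlier results of these data known, and the classes and lists were written by hand. Named were the 8 most and 5 least abundant genes of each subunit, the 3 with the largest ratio each way, those whose leading transcript changed or was not coding, the Mrps18 paralogs, Mrps30, Mrps36, the subunit genes with other symbols, the rRNAs, and the 3 most and the least abundant gene of each pathway list. Mrpl23-ps1, Gm5776, Mrpl43, start or exon neighbours, mt-Co1 and mt-Atp8 were named after their values were seen. The counts of genes higher in each pup by scaling, and the leading transcripts by counts, were added after the data were seen.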

Additional observations from a re-analysis of the deposited data

How the results depend on the processing

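The median of 79.4 TPM lay between 76.9 TPM and 81.9 TPM without either replicate and fell to 61.8 TPM with protein-coding transcripts alone, where 76 genes reached 1 TPM, since Mrpl32 has no such transcript. The SD of log2 level was 0.98 to 1.02 without either replicate, 1.75 with coding transcripts alone and 0.65 on CPM. The log2 difference of the large and small subunit medians, -0.01, was 0.031 and 0.035 without replicate 1 and replicate 2, -0.065 with coding transcripts, -0.063 on CPM, 0.046 by structure, -0.019 with the other symbols added and 0.041 with Mrpl23-ps1 added to Mrpl23. Its sign is therefore not set by these data. The log2 ratio of the summed mitochondrial over cytosolic genes, -2.38, was -2.42 to -2.33 without either replicate and -1.90 on counts. The share of counts was 0.478% to 0.491% without either replicate, and the count of 77 genes at 1 TPM stayed at 77. The median ratio of the pups was 0.070 with total counts, 0.23 with spike-ins and 0.11 with TPM. The limit of 1.5-fold gave 1 gene in place of 0. The additions of Mrpl23-ps1 and the SD on CPM were chosen after seeing the data. The spike-ins held 406 and 416 counts in replicates 1 and 2, which limits that scaling. No paired analysis was possible because there is 1 group. With 695 or more counts per gene and library, depth did not keep any of the 77 genes from being measured, while 2 samples give no test.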
